A study of Mus musculus with 12 samples.

Results

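A set of 48 genes of DNA replication, mitosis and their transcriptional control was followed in the epididymal fat pad of mice, out of 25232 rows of the deposited expression table. Members were taken by gene symbol, and all 48 were found and passed the filter on low values. They fall into 21 S-phase genes (DNA replication, nucleotide supply and the cyclin E kinase), 23 mitosis genes (cyclins A and B with their kinase, spindle, kinetochore and chromosome genes) and 4 regulators (Foxm1, E2f1, E2f2 and Mybl2). Symbols chose the members and the rule held no expression value, but the list was drawn up with earlier results of these data known.

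The samples were whole epididymal white fat of C57BL/6 mice, 12 libraries in 4 groups of 3 biological replicates. ND_WT and ND_TKO held wild-type and TET KO mice on Normal Diet, and HFD_WT and HFD_TKO held the same genotypes on High Fat Diet. The TET enzymes oxidise methylated cytosine, a step in the removal of DNA methylation. The series title places their loss in adipocytes. Not given in the labels are which TET genes were removed, the promoter that drove the deletion, the age of the mice and the length of feeding. The labels give the tissue and no sorting of cells, so immune, vascular and stromal RNA was sequenced along with that of adipocytes. In such bulk tissue, a change in the number of cells of a type and a change in RNA per cell cannot be told apart.

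As background, a cell that enters the cycle raises D-type cyclins with CDK4 and CDK6 and then cyclin E with CDK2, which release E2F factors from the retinoblastoma proteins. E2F factors switch on the genes that license and copy DNA. B-Myb (Mybl2) and FoxM1 then act with the MuvB complex, mostly at promoters that carry a CHR element and CCAAT boxes, to switch on mitosis genes, and resting cells keep both sets low through MuvB and the retinoblastoma family. Mature adipocytes do not divide, whereas macrophages and adipocyte progenitors of fat are known to proliferate when the tissue expands.

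Libraries held between 20973140 and 25606629 reads, recovered from the deposited CPM values (reads of a gene scaled to the library total). On the first principal component, with 64.3% of the variance over 15597 tested genes, the HFD_WT libraries lay at 72.6 to 72.9 and the other 9 at -44.0 to 0.462. ND_WT replicate 3 was set apart from its group on the second component (-6.21, against -32.0 and -32.6 for replicates 1 and 2), and counts are given without it where they move. HFD_TKO replicate 1 was also apart on that component, at 44.2 against 18.5 and 26.2 for replicates 2 and 3. No Tet gene was called lower in a TKO group, and Tet1, at 0.415 to 1.48 CPM in WT and 1.65 to 3.07 in TKO libraries, was called higher on both diets. Reads outside the deleted exons and from other cells remain in such values, so they do not check the genotype labels. Adipocyte markers were abundant in every library, at 19349 to 53285 CPM summed over 12 genes, and genes of epididymis and germ cells summed to 0.936 CPM at most. The adipocyte sum was lowest in HFD_WT (19349 to 20549 CPM), against 31198 to 33874 in HFD_TKO and 42791 to 53285 in the ND groups.

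Changes below are differences of group means of log2(CPM + 1), called "log2 change", with their standard error (SE) and a p-value from limma adjusted over all 15597 tested genes by the Benjamini-Hochberg method. A gene was said to rise or fall where that adjusted p was under 0.05. The added 1 CPM shrinks the change of low genes, so CPM of each library are given beside it. Levels of the members differed widely. Per kilobase of exon, Pcna, the sliding clamp of the replication fork, had the highest mean in every group (18.2 CPM per kilobase in ND_WT and 60.7 in HFD_WT), and the lowest was Cenpf, a kinetochore gene, on ND (0.0850 in ND_WT) and Orc1, an origin gene, on HFD (0.385 in HFD_WT). No member was without reads in any library, and the lowest count was 5 reads.

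All 23 mitosis genes and 16 of the 21 S-phase genes rose on high-fat diet in WT mice, where 37.8% of all tested genes rose. The same diet raised 21 and 11 of them in TKO mice, where 16.2% of tested genes rose, and the count over all members there, 35, was 20 without ND_TKO replicate 3. On normal diet the genotypes differed in 3 members, with 5.70% of tested genes called. HFD_WT had the highest group mean for 44 of the 48 members, a count that was not made over all tested genes. Summed over the 48 genes, the libraries held 313 to 338 CPM in ND_WT, 284 to 322 in ND_TKO, 1092 to 1151 in HFD_WT and 404 to 506 in HFD_TKO. The HFD_WT libraries lay above all others, the HFD_TKO libraries lay between them and the ND libraries, and the ND groups overlapped.

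**Figure D1:**
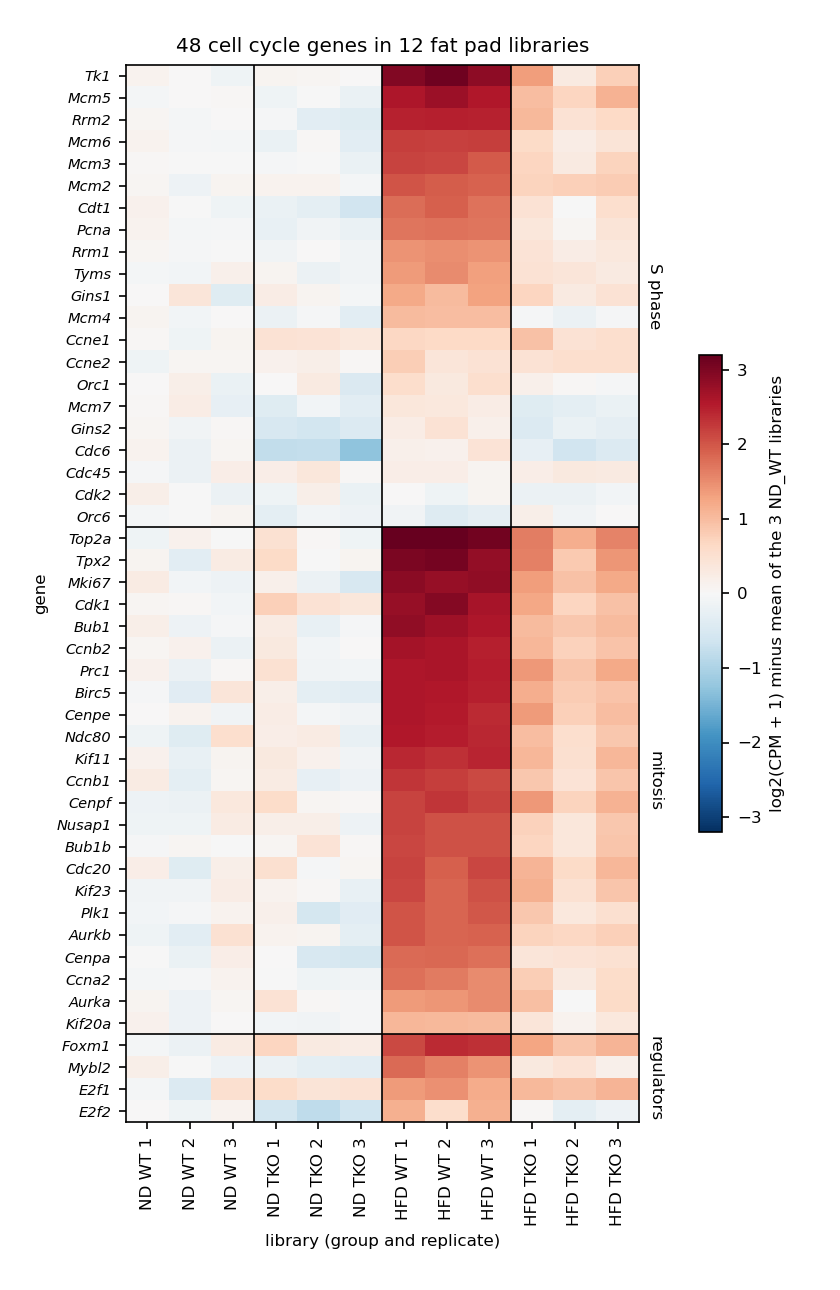
Level of each of the 48 genes (vertical axis, by list) in each of the 12 libraries (horizontal axis), as log2(CPM + 1) minus the mean of the 3 ND_WT libraries; red is above and blue below that mean. The 3 HFD_WT columns are red for all but a few S-phase genes, the HFD_TKO columns are paler, and Cdk2, Orc6 and Cdc45 stay near white throughout.

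The promoters of both main lists were read for the sequence elements that the known regulators use. The member rule read no sequence, but it took genes by function, and genes of these functions are known targets of those regulators. A difference in words between the lists is therefore not independent of the choice of members. RefSeq promoters (GRCm38.p6, 250 bases before to 50 after each start) were found for 39 of the 48 members, with 42 promoters in all. Searched on both strands were 4 E2F words (TTCCCGC with TTGGCGC, and TTCGCGC with TTGCCGC), 2 CHR words (TTTGAA and TTCGAA) and CCAAT. The word TTGGCGC read on the other strand is GCGCCAA, so a following T makes it overlap a CCAAT box. Shown are stretches of 180 bases, 150 before to 30 after the start, in the direction of transcription. Mcm5 and Mcm6 encode subunits of the replicative helicase and rose strongly, Cdk2 carries E2F words and did not move, Ccnb2, Cdc20, Cdk1 and Top2a are mitosis genes with a CHR word, and Ccnb1 is a mitosis gene without it in this window. Capitals mark bases of an E2F, CHR or CCAAT word on either strand; a capital run at an end of a stretch can continue outside it.
Mcm5, chr8:75109359-75109538, plus strand: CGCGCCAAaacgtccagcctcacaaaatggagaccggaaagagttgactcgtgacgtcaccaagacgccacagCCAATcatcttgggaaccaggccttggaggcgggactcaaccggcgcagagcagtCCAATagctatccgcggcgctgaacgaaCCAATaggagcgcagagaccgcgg
Mcm6, chr1:128359676-128359855, minus strand: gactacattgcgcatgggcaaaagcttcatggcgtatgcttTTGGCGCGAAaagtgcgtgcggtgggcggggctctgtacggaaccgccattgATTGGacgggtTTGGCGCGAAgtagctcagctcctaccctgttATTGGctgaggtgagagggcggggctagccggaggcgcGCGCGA
Cdk2, chr10:128705022-128705201, minus strand: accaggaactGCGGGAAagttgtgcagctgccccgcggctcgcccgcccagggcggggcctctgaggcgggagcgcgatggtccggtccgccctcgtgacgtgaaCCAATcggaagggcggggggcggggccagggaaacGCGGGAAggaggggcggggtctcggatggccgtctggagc
Ccnb2, chr9:70421525-70421704, minus strand: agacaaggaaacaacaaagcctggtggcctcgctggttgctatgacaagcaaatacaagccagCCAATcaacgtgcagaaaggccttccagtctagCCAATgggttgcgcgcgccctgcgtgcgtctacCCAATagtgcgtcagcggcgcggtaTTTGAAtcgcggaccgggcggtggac
Cdc20, chr4:118437314-118437493, minus strand: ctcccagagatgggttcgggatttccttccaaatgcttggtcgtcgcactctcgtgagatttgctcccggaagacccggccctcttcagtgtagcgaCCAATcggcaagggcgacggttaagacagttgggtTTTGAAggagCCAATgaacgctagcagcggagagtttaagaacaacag
Cdk1, chr10:69352883-69353062, minus strand: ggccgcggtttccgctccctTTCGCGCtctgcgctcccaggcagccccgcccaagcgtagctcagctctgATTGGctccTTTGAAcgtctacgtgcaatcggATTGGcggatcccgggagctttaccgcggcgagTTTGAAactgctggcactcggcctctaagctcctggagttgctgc
Top2a, chr11:99024160-99024339, minus strand: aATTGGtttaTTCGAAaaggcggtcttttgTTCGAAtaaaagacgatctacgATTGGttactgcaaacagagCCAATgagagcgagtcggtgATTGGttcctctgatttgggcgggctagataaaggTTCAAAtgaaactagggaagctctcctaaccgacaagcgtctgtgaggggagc
Ccnb1, chr13:100786457-100786636, minus strand: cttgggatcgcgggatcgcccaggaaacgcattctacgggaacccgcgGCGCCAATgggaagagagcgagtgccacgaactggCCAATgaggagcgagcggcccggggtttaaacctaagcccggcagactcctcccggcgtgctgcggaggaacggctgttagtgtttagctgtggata

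The words split the lists. An E2F word was in 11 of 18 S-phase promoters (61.1%) and 3 of 20 mitosis promoters (15%), against 9.57% of all 32851 promoters of the table and 15.4% of those of tested genes. A CHR word was in 16 of 20 mitosis promoters (80.0%) and 3 of 18 S-phase promoters (16.7%), against 19.2% of all promoters and 14.5% of those of tested genes. CCAAT was in 17 of 20 mitosis promoters (85.0%) and 13 of 18 S-phase promoters (72.2%), against 37.4% of all. A CHR word together with CCAAT was in 15 of 20 mitosis promoters (75%) and in 7.52% of all promoters. These matches are letters in a window, not measured binding sites. No other form of the CHR element was searched, so a gene without these CHR words is not shown to lack the element. The diet change in WT mice, given without a test, had a median log2 value of 1.63 for the 10 S-phase genes with an E2F word and 1.40 for the 7 without, and 2.40 for the 15 mitosis genes with a CHR word and 2.36 for the 4 without (Birc5, Ccnb1, Cenpe and Nusap1).

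High-fat diet in WT mice raised 43 of the 48 members and lowered none. Over all tested genes 37.8% rose and 20.3% fell in this comparison (58.1% changed), and with TMM scaling, which moved the median of all genes by -0.12, 29.9% rose and 27.2% fell. Under that scaling 41 members rose and 1, Orc6, fell. The median log2 change of the members was 1.95, against 0.13 over all tested genes. It was 2.21 for the mitosis genes, 1.48 for the regulators and 1.18 for the S-phase genes. CPM of the ND_WT and HFD_WT libraries did not overlap for 46 members (45 higher and 1, Orc6, lower in HFD_WT), where 41.6% of tested genes were higher and 23.8% lower without overlap.

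The regulators rose with the diet in WT mice as well. Foxm1, the forkhead factor of mitosis genes (chr6:128362967-128376146), stood at 1.76, 1.57 and 2.46 CPM for ND_WT, 3.65, 2.55 and 2.40 for ND_TKO, 11.6, 14.2 and 13.6 for HFD_WT, and 6.00, 4.41 and 5.21 for HFD_TKO. The HFD_WT libraries were the highest, HFD_TKO came next without overlap, and the ND groups overlapped. In WT mice the diet raised Foxm1 by a log2 change of 2.28 (SE 0.16, adjusted p = 3.3e-07).

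Mybl2 encodes B-Myb, the partner of the MuvB complex (chr2:163054687-163084688). It stood at 1.38, 1.06 and 0.867 CPM for ND_WT, 0.831, 0.695 and 0.667 for ND_TKO, 6.33, 5.40 and 4.63 for HFD_WT, and 1.58, 1.84 and 1.33 for HFD_TKO. HFD_WT stood far above the other groups, and the diet change in WT mice was 1.62 on the log2 scale (SE 0.14, adjusted p = 1.6e-06).

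E2f1 (chr2:154559407-154569892) and E2f2 (chr4:136172394-136196057) encode activator E2F factors. E2f1 stood at 8.30, 6.13 and 12.7 CPM for ND_WT, 13.6, 11.9 and 12.4 for ND_TKO, 23.7, 25.8 and 21.1 for HFD_WT, and 18.9, 17.4 and 19.7 for HFD_TKO. E2f2 stood at 3.29, 2.86 and 3.56 CPM for ND_WT, 1.80, 1.39 and 1.73 for ND_TKO, 8.36, 5.22 and 8.27 for HFD_WT, and 3.35, 2.39 and 2.79 for HFD_TKO. The factors differed in pattern: E2f1 was nearly as high in HFD_TKO as in HFD_WT, whereas E2f2 in HFD_TKO lay within or below the ND_WT range. Diet raised both in WT mice, E2f1 by a log2 change of 1.34 (SE 0.19, adjusted p = 7.2e-05) and E2f2 by 0.95 (SE 0.17, adjusted p = 4.7e-04).

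Of the S-phase genes, the clamp gene Pcna (chr2:132249162-132253314) stood at 46.9, 41.5 and 42.5 CPM for ND_WT, 36.8, 39.9 and 37.6 for ND_TKO, 145, 147 and 145 for HFD_WT, and 56.3, 45.7 and 58.0 for HFD_TKO. The HFD_WT values lay far above all others and close to each other. In WT mice the log2 change of Pcna with diet was 1.72 (SE 0.09, adjusted p = 3.3e-08).

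The 6 genes of the MCM helicase, which unwinds DNA at the fork, did not rise equally in WT mice. Their log2 changes with diet were 2.63 for Mcm5, 2.20 for Mcm6, 2.10 for Mcm3, 1.94 for Mcm2, 0.99 for Mcm4 and 0.31 for Mcm7. Mcm6 (chr1:128331590-128359664) stood at 16.6, 14.9 and 14.6 CPM for ND_WT, 13.2, 15.8 and 12 for ND_TKO, 74.6, 73.5 and 74.7 for HFD_WT, and 24.2, 18.4 and 20.7 for HFD_TKO. Its HFD_WT libraries lay within a narrow range, and those of HFD_TKO lay clear of both this range and the ND groups. Mcm7 by contrast stood at 30.7, 35.8 and 24.8 CPM for ND_WT and 38.8, 38.2 and 35.9 for HFD_WT, with 22.7, 28.2 and 23.7 for ND_TKO and 22.6, 23.9 and 25.7 for HFD_TKO. Every HFD_WT value lay above every ND_WT value by little, and the rise (SE 0.12, adjusted p = 0.045) was not called in 15 of 23 alternative analyses, among them TMM scaling and leaving out ND_WT replicate 1 or 3 or any 1 of the HFD_WT libraries. Parts of its exons overlap the genes Ap4m1, Cops6, Mir25 and Mir93.

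Tk1, thymidine kinase of the nucleotide salvage route (chr11:117815526-117826092), stood at 2.29, 2.07 and 1.73 CPM for ND_WT, 2.22, 2.18 and 2.05 for ND_TKO, 22.4, 25.1 and 20.9 for HFD_WT, and 6.65, 2.71 and 4.11 for HFD_TKO. It had the largest diet change of the S-phase list in WT mice, 2.97 on the log2 scale (SE 0.21, adjusted p = 2.7e-07). Rrm2, the cell-cycle-regulated subunit of ribonucleotide reductase (chr12:24708241-24714146), stood at 3.62, 3.23 and 3.42 CPM for ND_WT, 3.28, 2.5 and 2.40 for ND_TKO, 23.4, 23.8 and 23.5 for HFD_WT, and 8.0, 5.10 and 5.85 for HFD_TKO. Both genes were far higher in HFD_WT than in any other group, and HFD_TKO replicate 1 was the highest of its group for each. The log2 change of Rrm2 with diet in WT mice was 2.47 (SE 0.14, adjusted p = 6.7e-08), against 1.45 for Rrm1, the other subunit, and 1.40 for Tyms, thymidylate synthase.

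Genes that load and fire origins split. Cdt1, which loads the helicase (chr8:122568015-122573554), stood at 2.86, 2.44 and 2.19 CPM for ND_WT, 2.03, 1.81 and 1.29 for ND_TKO, 11.0, 12.1 and 10.6 for HFD_WT, and 3.77, 2.44 and 4.07 for HFD_TKO, and rose in WT mice by a log2 change of 1.81 (SE 0.16, adjusted p = 2.1e-06). Gins1, a subunit of the active helicase, rose by 1.18 and Orc1, a subunit of the origin recognition complex, by 0.47 (adjusted p = 0.047), a call that was lost in 17 of 23 alternatives, among them leaving out any 1 of the HFD libraries, ND_WT replicate 1 or 3 or ND_TKO replicate 1. Orc1 shares 10.8% of its exon bases with Gm12743 on the other strand. The loader Cdc6, the helicase subunits Cdc45 and Gins2 and the origin subunit Orc6 were not called, with log2 changes of 0.24, 0.17, 0.29 and -0.27. Gins2 was called higher without HFD_WT replicate 3 or HFD_TKO replicate 1. Orc6 was called lower with TMM scaling and without HFD_WT replicate 1 or HFD_TKO replicate 1 or 2. Of the exon bases of Gins2, 67.3% overlap the gene Gse1 on the other strand, so its reads are uncertain.

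The cyclin E kinase genes moved less. Ccne1, the cyclin E1 gene, stood at 5.29, 4.61 and 5.52 CPM for ND_WT, 7.38, 7.27 and 6.71 for ND_TKO, 8.75, 8.45 and 8.57 for HFD_WT, and 10.7, 7.49 and 7.90 for HFD_TKO. Ccne2, cyclin E2, stood at 7.15, 8.34 and 8.40 CPM for ND_WT, 8.91, 9.22 and 8.22 for ND_TKO, 14.4, 10.8 and 11.3 for HFD_WT, and 11.3, 12 and 12 for HFD_TKO. Cdk2, their kinase (chr10:128697939-128705031), stood at 23.8, 20.6 and 18.2 CPM for ND_WT, 18.6, 23.9 and 17.8 for ND_TKO, 21.1, 18.7 and 22.2 for HFD_WT, and 18.2, 18.1 and 19.6 for HFD_TKO. Of the exon bases of Ccne2, 17.4% overlap the gene Ints8 on the other strand, so its counts are less certain. The HFD groups overlapped for all 3 genes, and for Cdk2 all 4 groups overlapped. In WT mice the diet raised Ccne1 by a log2 change of 0.65 (SE 0.12, adjusted p = 8.6e-04) and Ccne2 by 0.55 (SE 0.11, adjusted p = 0.0014), and Cdk2 changed by -0.01 (SE 0.12, adjusted p = 0.95).

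All 23 mitosis genes rose on high-fat diet in WT mice, by log2 changes between 1.03 (Kif20a) and 3.18 (Top2a). Mki67, the gene of a protein widely used to mark dividing cells (chr7:135689784-135716361), stood at 11.2, 8.48 and 7.99 CPM for ND_WT, 10.3, 7.88 and 6.09 for ND_TKO, 74.3, 69 and 71.8 for HFD_WT, and 24.7, 18.2 and 22.3 for HFD_TKO. Top2a, the topoisomerase that untangles sister chromatids (chr11:98992943-99024189), stood at 5.34, 6.73 and 5.93 CPM for ND_WT, 8.72, 6.12 and 5.33 for ND_TKO, 66.2, 62.5 and 58.5 for HFD_WT, and 20.9, 14.6 and 20.1 for HFD_TKO. For both genes every HFD_TKO library lay above every ND library and below every HFD_WT library. The log2 change with diet in WT mice was 2.84 for Mki67 (SE 0.17, adjusted p = 7.7e-08) and that of Top2a had an SE of 0.17 (adjusted p = 3.6e-08).

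The kinase and cyclins of mitotic entry followed. Cdk1, the mitotic kinase (chr10:69335146-69352938), stood at 2.48, 2.44 and 2.15 CPM for ND_WT, 4.71, 3.61 and 3.33 for ND_TKO, 22.2, 24.7 and 20.0 for HFD_WT, and 6.93, 4.41 and 5.39 for HFD_TKO. Ccna2, cyclin A2, stood at 10.2, 10.4 and 11.7 CPM for ND_WT, 10.8, 9.78 and 9.96 for ND_TKO, 38.6, 36.5 and 32.8 for HFD_WT, and 19.3, 13.5 and 16.8 for HFD_TKO. Ccnb1, cyclin B1, stood at 2.38, 1.24 and 1.92 CPM for ND_WT, 2.35, 1.34 and 1.51 for ND_TKO, 12.8, 11.9 and 11.2 for HFD_WT, and 4.09, 2.80 and 4.20 for HFD_TKO. The cyclins had the order of Mki67, with overlapping ND groups, whereas Cdk1 was higher in every ND_TKO library than in every ND_WT library and overlapped between ND_TKO and HFD_TKO. Diet in WT mice raised Cdk1 by a log2 change of 2.79, Ccnb2 by 2.59, Ccnb1 by 2.21 and Ccna2 by 1.65, each with an adjusted p of 1.3e-06 or less.

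Spindle, checkpoint and chromosome passenger genes rose as well. Cdc20, which activates the ubiquitin ligase that ends mitosis, stood at 1.67, 0.738 and 1.60 CPM for ND_WT, 2.26, 1.25 and 1.38 for ND_TKO, 9.18, 7.57 and 9.05 for HFD_WT, and 3.91, 2.48 and 3.79 for HFD_TKO. Birc5, survivin of the passenger complex, stood at 1.57, 1.06 and 2.42 CPM for ND_WT, 1.98, 1.11 and 1.07 for ND_TKO, 14.8, 14.6 and 13.7 for HFD_WT, and 4.88, 3.58 and 3.98 for HFD_TKO. Aurkb, the kinase of that complex, stood at 1.48, 1.15 and 2.83 CPM for ND_WT, 1.94, 1.90 and 1.20 for ND_TKO, 9.998, 8.98 and 9.13 for HFD_WT, and 3.49, 3.31 and 3.61 for HFD_TKO. Each had its HFD_WT libraries on top and its HFD_TKO libraries above both ND groups, which overlapped. Their log2 changes with diet in WT mice were 2.06, 2.55 and 1.92, and that of Tpx2, a spindle assembly factor, was 2.97. Ccna2, Prc1 and Kif20a share 12.5%, 11.1% and 29.3% of their exon bases with genes on the other strand, so their counts are less certain.

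On high-fat diet, TKO mice had lower levels of 41 members than WT mice, among them all 23 mitosis genes, 15 S-phase genes and 3 regulators, and a higher level of 1 member, Orc6. Of all tested genes 46.7% changed in this comparison, with 31.6% lower and 15.2% higher (25.6% and 21.3% with TMM scaling). The median log2 change of the members was -1.27, against -0.10 over all tested genes. CPM of the HFD groups did not overlap for 43 members that were lower in TKO, and for Orc6, which was higher, where 38.6% of tested genes were lower and 21.0% higher without overlap. The median change was -1.42 for mitosis genes, -1.14 for regulators and -1.02 for S-phase genes.

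Tk1 fell most in TKO on high-fat diet, from 22.8 ± 2.14 to 4.49 ± 2.0 CPM (SD, n = 3 each), a log2 change of -2.17 (SE 0.21, adjusted p = 5.4e-06). The mean of Cdk1 went from 22.3 ± 2.37 to 5.58 ± 1.27 CPM (a fall of -1.84 on the log2 scale, SE 0.15, adjusted p = 2.1e-06), and that of Bub1, a checkpoint kinase, from 10.03 ± 0.966 to 2.27 ± 0.177 CPM (-1.75, SE 0.15, adjusted p = 2.4e-06). Bub1 stood at 0.906, 0.507 and 0.639 CPM for ND_WT and 1.02, 0.417 and 0.623 for ND_TKO, where its change of -0.01 was the smallest of all members. Log2 changes of Mcm6, Rrm2, Mcm5, Top2a, Mki67 and Ccnb2 lay between -1.78 and -1.69. The smallest fall of the mitosis list was that of Kif20a, at -0.76 on the log2 scale.

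The regulators did not fall alike in TKO mice on high-fat diet. Mybl2 fell by 1.32 on the log2 scale (adjusted p = 1.4e-05), Foxm1 by 1.19 (adjusted p = 9.2e-05) and E2f2 by 1.09 (adjusted p = 2.3e-04). E2f1 changed by -0.31 (SE 0.19, adjusted p = 0.19), and it was called lower without ND_WT replicate 3 or when only the HFD groups were fitted (lowest adjusted p over 23 alternatives 0.028). Among S-phase genes, Ccne1, Ccne2, Cdk2 and Cdc45 changed by 0.00, -0.04, -0.14 and 0.09, and Orc1 by -0.41 (adjusted p = 0.086), which was called without ND_TKO replicate 3.

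Orc6 stood at 19.5, 20.2 and 21.9 CPM for ND_WT, 16.2, 19.1 and 18.4 for ND_TKO, 19.1, 15.1 and 16.7 for HFD_WT, and 23.6, 19.1 and 20.8 for HFD_TKO. The lowest HFD_TKO library, at 19.07 CPM, lay barely above the highest HFD_WT library, at 19.06, so the lack of overlap rests on a very small gap. Its log2 change of 0.30 (SE 0.11, adjusted p = 0.037) was not called in 7 of 23 alternatives, which included leaving out HFD_WT replicate 2 or 3 or HFD_TKO replicate 1 or 3. The adjusted p of Orc6 ranged from 0.0030 to 0.15 over the alternatives.

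**Figure D2:**
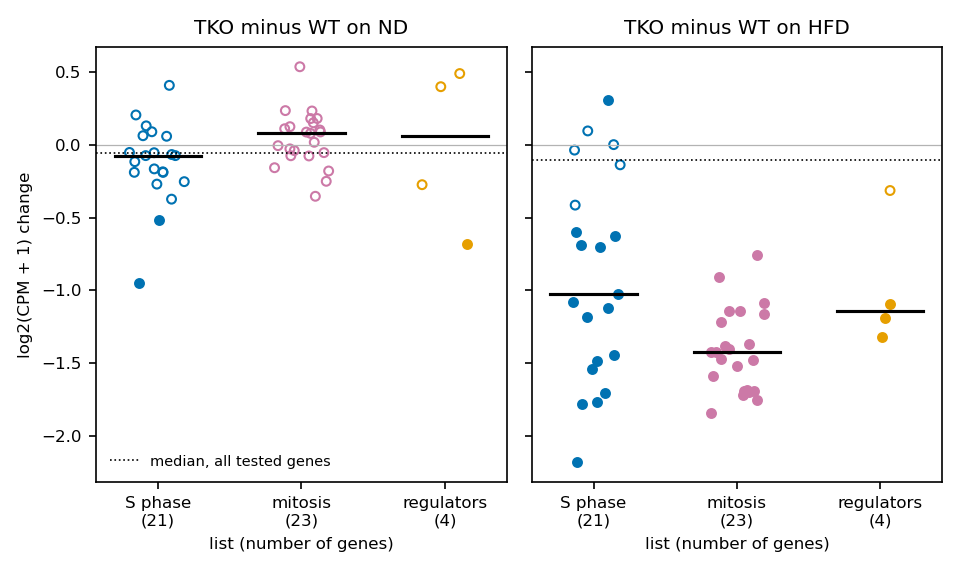
Log2(CPM + 1) change of TKO against WT (vertical axis) for each gene of the 3 lists (horizontal axis), on ND at left and HFD at right; filled points passed an adjusted p of 0.05, thick bars are list medians and the dotted line is the median of all tested genes. On ND the points lie around 0 with 3 filled, and on HFD all 23 mitosis genes are filled and below 0 while 5 S-phase genes are hollow.

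On normal diet the genotypes differed in 3 members, Cdc6, Gins2 and E2f2, all lower in TKO. That is 6.25% of the members, and 5.70% of all tested genes were called, with 3.54% lower and 2.16% higher (2.54% and 3.37% with TMM scaling), so the share is near the background. No mitosis gene was called by limma or edgeR, 1 was called by DESeq2 (Cdk1, higher), and 2 of the 23 had an unadjusted p under 0.05 by limma. Cdk1, higher in all ND_TKO libraries, changed by 0.53 on the log2 scale (SE 0.15, adjusted p = 0.067). Median log2 changes were 0.08 for mitosis, -0.08 for S-phase genes and -0.06 over all tested genes. CPM of the ND groups overlapped for 39 members, with 2 higher and 7 lower in TKO without overlap, where 7.96% and 15.8% of tested genes were.

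Cdc6 (chr11:98907801-98923940), the ATPase that loads the helicase with Cdt1, stood at 4.29, 3.27 and 4.06 CPM for ND_WT, 1.80, 1.85 and 0.978 for ND_TKO, 4.41, 4.34 and 5.54 for HFD_WT, and 3.02, 2.16 and 2.56 for HFD_TKO. All 6 TKO libraries lay below all 6 WT libraries. The log2 change of TKO against WT was -0.95 on normal diet (SE 0.17, adjusted p = 0.0072) and -0.69 on high-fat diet (SE 0.17, adjusted p = 0.0053), and the interaction of genotype with diet was 0.26 (SE 0.24, adjusted p = 0.45). Cdc6 was not called on normal diet when only the ND groups were fitted, with or without the replicate block.

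Gins2 stood at 7.44, 6.41 and 7.26 CPM for ND_WT, 4.61, 4.36 and 4.89 for ND_TKO, 8.44, 10.05 and 7.96 for HFD_WT, and 4.88, 5.97 and 5.53 for HFD_TKO, again with every TKO library below every WT library. Its log2 change was -0.51 on normal diet (SE 0.12, adjusted p = 0.024) and -0.60 on high-fat diet (SE 0.12, adjusted p = 0.0011), with the overlap with Gse1 named above. E2f2 changed by -0.68 on normal diet (SE 0.17, adjusted p = 0.038). On normal diet the call of Gins2 ended without ND_WT replicate 1 or any 1 of the ND_TKO libraries, and that of E2f2 without any 1 of the 6 ND libraries, HFD_WT replicate 1 or HFD_TKO replicate 3. The adjusted p over the alternatives ranged from 0.019 to 0.22 for Gins2 and from 0.017 to 0.16 for E2f2. Without ND_WT replicate 3, 4 members were called on normal diet, with Mcm7 lower and E2f1 higher and E2f2 no longer among them.

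High-fat diet in TKO mice raised 35 of the 48 members and lowered none, among them 21 mitosis genes, 11 S-phase genes and 3 regulators. Of all tested genes 16.2% rose and 5.90% fell (9.0% and 9.5% with TMM scaling, which left 28 members called), 22.1% in all. CPM of all HFD_TKO libraries lay above all ND_TKO libraries for 38 members, where 27.7% of tested genes did and 11.7% lay below. The median log2 change of the members was 0.64, against 0.07 over all tested genes and against 1.95 for the members in WT mice. Every gene among the 35 was also among the 43 that rose in WT mice (100% and 81.4% of each list). With 43 of the 48 members called in WT mice a large overlap was likely in any case, and the overlap over all tested genes was not counted. The count of 35 depended on 1 library: 20 members were called without ND_TKO replicate 3, which had the lowest CPM of its group for 32 of the 48 members.

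Mki67 and Top2a had the largest rise in TKO mice, each by a log2 change of 1.34 (SE 0.17, adjusted p = 0.0011 and 0.0010), from 8.09 ± 2.11 to 21.7 ± 3.24 CPM and from 6.72 ± 1.77 to 18.5 ± 3.44 CPM (SD, n = 3). Birc5 rose by 1.12, Mcm5 by 1.05 and Cenpe, a kinetochore motor, by 1.02 on the log2 scale. Cdk1 and Aurka were the mitosis genes that were not called, at 0.42 (adjusted p = 0.072, called without ND_TKO replicate 1 or HFD_TKO replicate 2) and 0.37 (adjusted p = 0.24). S-phase genes that were not called included Mcm4 at 0.10, Mcm7 at -0.04 and Cdk2 at -0.09.

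The HFD_TKO libraries lay above those of WT mice on normal diet for most members. CPM of all 3 HFD_TKO libraries lay above all 3 ND_WT libraries for 33 members (21 mitosis genes, 10 S-phase genes and 2 regulators), below them for 2 (Cdc6 and Gins2) and overlapped for 13, where 25.1% of tested genes lay above and 19.5% below. The median ratio of the HFD_TKO to the ND_WT mean was 2.36 for mitosis genes and 1.37 for S-phase genes. HFD_TKO libraries also differed among themselves. Replicate 2 was the lowest of its group for 39 of the 48 members and for 22 of the 23 mitosis genes.

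**Figure D3:**
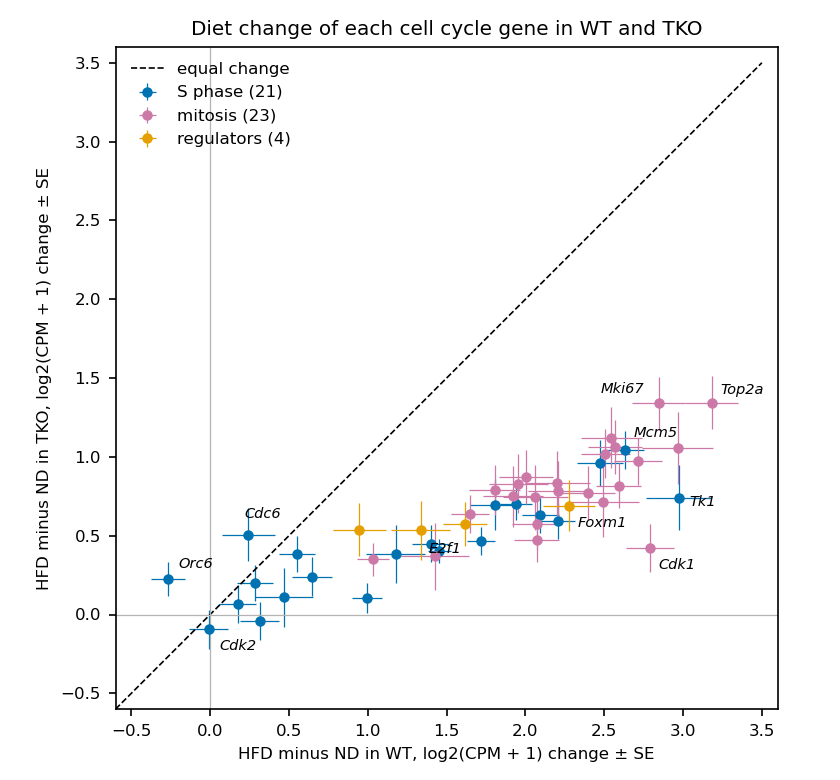
Log2(CPM + 1) change from ND to HFD of each of the 48 genes in WT (horizontal axis) and TKO (vertical axis), with bars for the SE and colours for the list; the dashed line marks equal change. All but 2 genes, Orc6 and Cdc6, lie below the line, and Cdk1 at 2.79 and 0.42 is farthest from it.

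The difference between the diet changes was tested as an interaction, the change of TKO against WT on high-fat diet minus that on normal diet. The value was negative, a smaller rise with diet in TKO than in WT mice, for 38 called members and positive for 1 (Orc6). Of all tested genes 28.7% were called, 18.8% with a negative and 9.94% with a positive value. All 23 mitosis genes were among the 38, with log2 interactions from -2.37 (Cdk1, SE 0.22, adjusted p = 2.2e-05) to -0.68 (Kif20a). Tk1 had -2.23 (SE 0.29, adjusted p = 1.9e-04), Foxm1 -1.59 (SE 0.23, adjusted p = 3.9e-04) and Pcna -1.25 (SE 0.13, adjusted p = 3.6e-05). Not called were Mcm7, Cdc6, Cdc45, Gins2, Orc1, Ccne1, Ccne2, Cdk2 and E2f2. The value of Orc6 was 0.49 (SE 0.15, adjusted p = 0.031), and it was not called in 7 of 21 alternatives, among them leaving out ND_WT replicate 3, ND_TKO replicate 1, HFD_WT replicate 2 or 3, or HFD_TKO replicate 1 or 3. E2f1 at -0.80 (adjusted p = 0.039) lost its call in 14 of 21 alternatives, with 10 of the 12 libraries left out in turn. Gins1 at -0.79 (adjusted p = 0.041) lost it in 15, with 8 of the 12 libraries left out in turn.

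S-phase and mitosis genes moved by different amounts. The median log2 change of S-phase genes was smaller than that of mitosis genes by 1.03 for high-fat diet in WT mice and by 0.39 for the diet in TKO mice, and on high-fat diet their fall in TKO was 0.40 smaller. With a pseudocount of 5 CPM the diet values (S-phase minus mitosis) were -0.56 in WT and -0.12 in TKO mice, and with edgeR they were -1.28 and -0.62. On normal diet the medians differed by -0.15, beside a spread between libraries of a group of 0.16 (SD, log2 scale), and with 1 library left out this difference ranged from -0.26 (without ND_WT replicate 3) to -0.04 (without ND_TKO replicate 1). S-phase genes held 69.2% to 74.3% of the members' summed CPM in ND_WT, 64.8% to 71.8% in ND_TKO, 53.5% to 54.7% in HFD_WT and 58.2% to 62.3% in HFD_TKO. The HFD ranges did not overlap each other or the ND ranges. S-phase genes have higher levels on normal diet than mitosis genes, with a median over genes of 1.91 to 1.99 CPM per kilobase in the ND_WT libraries against 0.393 to 0.658, and these difference values carry no test.

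Markers of other cells moved with the members, those of macrophages among them. The summed CPM of 12 macrophage genes was 817 to 1233 in ND_WT, 649 to 932 in ND_TKO, 4815 to 5575 in HFD_WT and 1186 to 1331 in HFD_TKO. High-fat diet raised 10 of the 12 in WT mice and 6 in TKO mice, and on high-fat diet 10 of the 12 were lower in TKO (median log2 change -2.08). The shares of all tested genes in these comparisons were 37.8%, 16.2% and 31.6%. Genes of lipid-associated macrophages without Lpl, which adipocytes also express, summed to 231 to 299, 210 to 385, 3982 to 5358 and 442 to 608 CPM in the same order of groups. The list was drawn up with Lpl, and its 10 genes then summed to 14061 to 16357, 21143 to 21623, 13478 to 16316 and 19005 to 21058 CPM. On that sum HFD_WT was not raised above ND_WT, and both TKO groups lay above both WT groups. The part of macrophages in the members' change was not tested.

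Set against the macrophage sum, the mitosis genes held 6.41 to 9.66 CPM per 100 macrophage CPM in ND_WT, 8.95 to 10.4 in ND_TKO, 8.35 to 9.29 in HFD_WT and 10.4 to 15.3 in HFD_TKO. On this scale the HFD_WT libraries lay within the range of ND_WT, of which replicates 2 and 3 were lower than all of them. The HFD_TKO libraries lay above all others, but replicate 2, at 10.42, lay barely above ND_TKO replicate 3, at 10.37. The S-phase genes held 18.5 to 29.9 CPM per 100 macrophage CPM in ND_WT, 22.4 to 30.8 in ND_TKO, 11.0 to 12.4 in HFD_WT and 20.7 to 24.8 in HFD_TKO. For them HFD_WT lay below all other libraries, and HFD_TKO overlapped with both ND groups. HFD_TKO replicate 2, which was lowest for most members, had a macrophage sum of 1213 CPM, between 1186 and 1331 of replicates 1 and 3.

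Other lists moved too on high-fat diet, where 31.6% of all tested genes were lower and 15.2% higher in TKO. Lower in TKO were 8 of 9 T and NK cell genes (median log2 change -1.67), 6 of 6 B and plasma cell genes (median log2 change -2.46), 5 of 7 tested granulocyte and mast cell genes (median -3.37) and 6 of 9 progenitor and stromal genes, while 10 of 12 adipocyte genes were higher. By limma no endothelial gene of 7 and no mesothelial gene of 6 was called (2 and 0 by edgeR and by DESeq2), with 1 of each list at an unadjusted p under 0.05. The HFD_WT libraries spread widely, from 73.2 to 275 CPM summed over B and plasma cell genes and from 21.8 to 70.6 over T and NK cell genes. The highest ND_WT library held 76.8 CPM of B and plasma cell genes, above the lowest HFD_WT library. Ly6g, the defining neutrophil gene, had no reads in 3 of the groups. The part of these cells in the members' change was not tested.

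**Figure D4:**
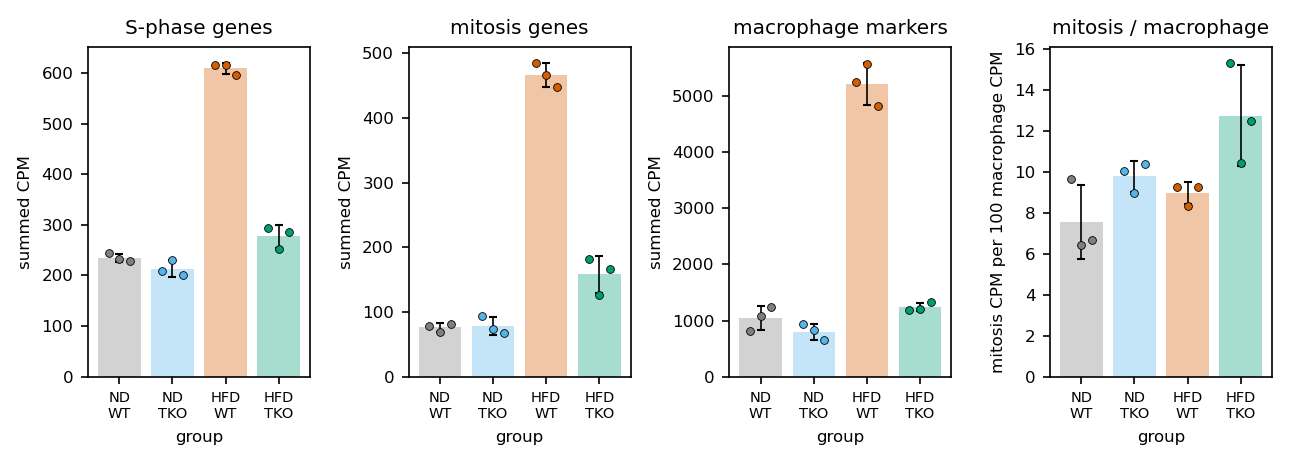
Summed CPM of the S-phase, mitosis and 12 macrophage marker genes and, at right, mitosis CPM per 100 macrophage CPM, by group; points are libraries, bars means and error bars SD (n = 3). The first 3 panels are highest in HFD_WT and the right panel is highest in HFD_TKO, at 10.4 to 15.3, with its lowest library barely above the highest of ND_TKO.

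Other genes of the pathway were taken from lists drawn up by function. Of 32 further mitosis genes, 30 rose with high-fat diet in WT mice, 22 in TKO mice, and 30 were lower in TKO on high-fat diet, with Spc25, a kinetochore gene, at a log2 change of 2.84 in WT and Hmmr, a spindle gene, at -1.73 in TKO. Pttg1, securin, went the other way and fell with the diet in both genotypes (-0.65 and -0.39). Of 32 further replication genes, 23 rose in WT, 11 rose in TKO and 20 were lower in TKO on high-fat diet, led by Uhrf1, a maintenance factor of DNA methylation, at 2.45 in WT and Chaf1b, a chromatin assembly subunit, at -1.57 in TKO. On normal diet 1 of these 64 genes was called, Pola1, the catalytic subunit of DNA polymerase alpha (-0.53, adjusted p = 0.017). Of all tested genes 37.8% rose in WT, 16.2% rose in TKO and 31.6% were lower in TKO on high-fat diet. On normal diet 5.70% were called. Orc2 (0.31) and Gins4 (0.24) were higher in TKO on high-fat diet, as Orc6 was.

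The switch of G1 moved unevenly. Ccnd1, cyclin D1, stood at 29.8, 25.2 and 31.8 CPM for ND_WT, 31.5, 37.5 and 34.3 for ND_TKO, 98.2, 105 and 100.1 for HFD_WT, and 57.9, 41.4 and 40.6 for HFD_TKO. Cdk6, a cyclin D kinase, stood at 7.68, 7.19 and 7.30 CPM for ND_WT, 7.75, 8.16 and 5.29 for ND_TKO, 33.9, 38.4 and 35.5 for HFD_WT, and 7.72, 11.8 and 10.4 for HFD_TKO. Both were far higher in HFD_WT than elsewhere, with log2 changes of TKO against WT on high-fat diet of -1.12 (adjusted p = 2.8e-05) and -1.77 (adjusted p = 3.6e-06). Cdk4 fell by 0.79. The other D-type cyclins went the opposite way in TKO, Ccnd3 with 0.65 and Ccnd2 with 0.38 on high-fat diet, and 0.28 and 0.56 on normal diet. The retinoblastoma relative Rbl1 fell by 1.04 and the late repressor E2f8 by 1.14 in TKO on high-fat diet, while Rb1 rose by 0.28.

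The CDK inhibitors had no common direction. Cdkn2c, p18 of the INK4 family that binds CDK4 and CDK6 (chr4:109660876-109667189), stood at 189, 158 and 162 CPM for ND_WT, 110.4, 105 and 108 for ND_TKO, 73.7, 68.9 and 63.0 for HFD_WT, and 161, 194 and 193 for HFD_TKO. It was lowest in HFD_WT and the genotypes had opposite order on the diets. Cdkn2c fell in TKO on normal diet (log2 change -0.64, SE 0.09, adjusted p = 0.0028), rose in TKO on high-fat diet (1.40, SE 0.09, adjusted p = 4.7e-07), and its interaction was 2.04 (SE 0.13, adjusted p = 3.2e-06).

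Cdkn1a, p21, stood at 10.6, 12.3 and 51.3 CPM for ND_WT, 76.6, 45.5 and 40.5 for ND_TKO, 145, 164 and 116 for HFD_WT, and 207, 138 and 158 for HFD_TKO. Diet raised it in WT (2.81, SE 0.46) and TKO (1.65, SE 0.46), and ND_WT replicate 3 was far above the other ND_WT libraries. Cdkn1c, p57, rose in TKO on high-fat diet by 1.03 (SE 0.22, adjusted p = 0.0022) and Cdkn2a fell by 0.49 (SE 0.15, adjusted p = 0.016), at 1.26 CPM or less in every library. Cdkn2d was not called in any comparison or alternative. Cdkn1b was not called by limma on CPM in any comparison, but for the diet in WT mice (log2 change -0.26, adjusted p = 0.13) it was called lower with TMM scaling, limma-voom, edgeR and DESeq2. On normal diet it was called lower in TKO by DESeq2 and without ND_WT replicate 3 or HFD_TKO replicate 1, and on high-fat diet without ND_WT replicate 3 or HFD_TKO replicate 2. Cdkn2b rose with diet in WT (0.93, adjusted p = 0.019), with 0.73 in TKO (adjusted p = 0.10) and an interaction that was not called (-0.20, adjusted p = 0.77).

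**Figure D5:**
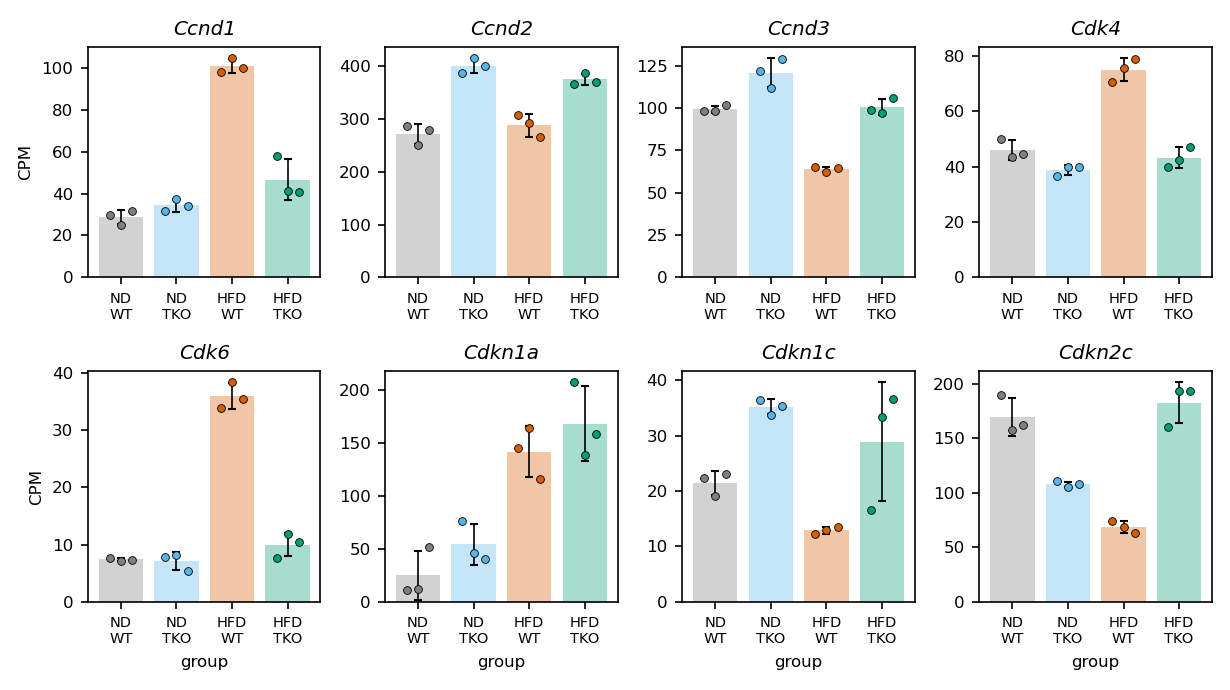
CPM by group of 8 genes that act before S phase, D-type cyclins and their kinases and CDK inhibitors; points are libraries, bars means and error bars SD (n = 3). Ccnd1, Cdk4 and Cdk6 are highest in HFD_WT, where Ccnd3, Cdkn1c and Cdkn2c are lowest.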

How the data were processed

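RNA-seq of whole epididymal fat from 12 mice was analysed in 4 groups of 3 biological replicates. The authors deposited 1 table of CPM values per gene and library (the column names call them raw CPM). Per the submitters' processing notes, which give no roles, the tools were STAR 2.7.3a, featureCounts 2.0.0 and DESeq2, and the build was mm10. The annotation release, the strand setting and the treatment of reads with several matches were not found in the labels or the file. Of the 25232 table entries, 3 without a gene symbol were left out (0.0313% to 0.0679% of CPM). From the CPM steps whole reads were recovered (100% of values whole within 0.05 read after subtracting 0.01 read), giving 20973140 to 25606629 reads per library.

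Differences of log2(CPM + 1) were tested with limma 3.58.1 (R 4.3.3) with a mean-variance trend over 15597 genes of at least 0.5 CPM in at least 3 libraries, with all 12 libraries in 1 fit, 8 residual degrees of freedom, Benjamini-Hochberg adjustment over all tested genes and a call at 0.05. Alternatives were another pseudocount, other filters, TMM scaling, edgeR 4.0.16, DESeq2 1.42.0 and limma-voom on recovered reads, only the compared groups, a replicate block and leaving out each library. The block with only the compared groups was added after seeing the data. The scripts were tested on simulated data. The members and lists were chosen with earlier results of these data known, so no test over a list is given. Values per library were set to be printed for the regulators, 16 members across the roles and the members of largest and smallest change. Those of Mcm7, Orc6, Gins2 and the G1 genes were added after their values were seen.

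Libraries of the same group were not copies by a chi-square test of their reads, and no library was counted as a copy of another. The labels number replicates 1 to 3 in every group without naming a shared litter or day. Deviations from the group means of same-numbered libraries correlated at -0.50 to 0.56 over 18 pairs. Between ND_TKO and HFD_TKO all 3 were over 0.1 (0.39, 0.56 and 0.12), and ND_TKO replicate 1 with HFD_TKO replicate 3 reached 0.11. With 3 libraries a group such values cannot show pairing, and the labels give none. The block was kept as an alternative only. For the diet effect in TKO mice it left 34 members called with only those groups fitted and 32 with all libraries. Positions are from GENCODE M21 (GRCm38) and promoters from RefSeq (GRCm38.p6).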

Additional observations from a re-analysis of the deposited data

Results flagged for a closer look

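The change of the members with genotype differed between the diets. The interaction of genotype with diet was called for 39 of the 48 members by limma. It was negative for 38 of them, with a smaller rise on high-fat diet in TKO than in WT mice, and positive for 1, Orc6. Of all 15597 tested genes, 28.7% were called. The ND_WT and HFD_WT groups entered this test as the reference of each diet, and without ND_WT replicate 3 the count was 37.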

How the results depend on the processing

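No member changed direction with a call under any alternative. Of the members called, 41 of 42 kept their call in every alternative for TKO on high-fat diet, 41 of 43 for the diet in WT mice, 34 of 39 for the interaction, 20 of 35 for the diet in TKO mice and 0 of 3 for TKO on normal diet. On normal diet the count of 3 became 1 with limma-voom and 0 with only the ND groups fitted, with or without the replicate block (5 members then had an unadjusted p under 0.05 by limma; edgeR called 3 and DESeq2 4). With 1 library left out it ranged from 1 (without ND_WT replicate 1 or any 1 of the ND_TKO libraries) to 5 (without HFD_TKO replicate 1). The count for the diet in TKO mice ranged from 20 (without ND_TKO replicate 3) to 37. With 1 library left out the other counts ranged from 41 to 43 (TKO on high-fat diet), 41 to 44 (diet in WT mice) and 35 to 39 (interaction). The replicate block with all libraries left 3, 41, 43, 32 and 38 members called for TKO on normal diet, TKO on high-fat diet, the diet in WT mice, the diet in TKO mice and the interaction, and with only the compared groups it left 42 and 41 for TKO on high-fat diet and the diet in WT mice. Except between ND_TKO and HFD_TKO, not every library correlated best with its own number. The labels name no pairs, so the replicate numbers were not read as pairing.

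The S-phase minus mitosis difference for the diet in WT mice, -1.03, was -0.56 with a pseudocount of 5 CPM, -1.28 with edgeR, -1.28 with DESeq2, -1.26 with limma-voom, and with 1 library left out -1.37 (ND_WT replicate 3) to -0.76 (replicate 2 of that group). For the diet in TKO mice, -0.39, it was -0.12 with a pseudocount of 5 CPM, -0.62 with edgeR, -0.63 with DESeq2 and -0.63 with limma-voom. The interaction value of 0.59 was 0.37 with a pseudocount of 5 CPM. The pseudocount shrinks low genes, and mitosis genes are the lower list. Over all tested genes, calls on normal diet numbered 889, with 535 without a filter, 1400 by DESeq2, 280 with only the ND groups, 53 with the block added to that fit, and 350 to 1853 with 1 library left out. Calls for the diet in TKO mice numbered 3446, with 1716 to 4296 with 1 library left out. Members of few reads (the lowest count was 5) have the least precise levels, and 3 libraries a group limit what can be called.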
